A study of Mus musculus with 9 samples.

Results

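The genes described here are 9 regulators of luminal progenitor and alveolar cells of the mammary gland: Elf5, Kit, Stat5a, Stat5b, Gata3, Ehf, Elf3, Aldh1a3 and Sox9. They were taken by name from the probe sets that carry a single gene symbol, and the probe set with the highest mean stood for a gene. All 9 were found among 22180 such genes, and all 9 were among the 17478 genes left after a filter on low values. Only Gata3 had more than 1 probe set.

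RNA of frozen mammary tissue from 9 female FVB mice was measured on Mouse Gene 2.0 ST arrays, with 1 array per mouse and 3 arrays per group. The first group was metastatic mammary tumours and the second non-metastatic mammary tumours, both of MMTV-Wnt1 mice with the genotype label Wnt1+/-. The third was normal mammary gland labelled wild-type for Wnt1, from control littermates per the protocol, although the series description can be read as counting them among the MMTV-Wnt1 mice. In MMTV-Wnt1 mice the promoter of a mouse mammary tumour virus, which is active mainly in mammary epithelium, drives Wnt1, a secreted signalling protein. Mice of every group drank 6% sucrose with 200 ug/ml doxycycline from 6 weeks of age, and tumours were collected at 20 mm. Metastatic tumours came from mice of 300, 281 and 284 days, non-metastatic tumours from mice of 354, 222 and 298 days, and normal glands from mice of 533, 556 and 538 days. Age and tumour status therefore cannot be told apart in any comparison with normal gland. Whole pieces of tissue were measured, so fewer cells of a type and less RNA per cell cannot be told apart either.

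Milk-producing alveolar cells arise from luminal progenitors, which carry the receptor Kit and express the transcription factor Elf5. Prolactin acts through its receptor and the kinase Jak2 on Stat5a and Stat5b, which enter the nucleus and switch on milk protein genes, and Elf5 works beside them. Gata3 is needed to form and keep the luminal layer as a whole. Tumours driven by Wnt1 in the mouse are known for holding both luminal and basal cells.

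RefSeq promoter windows of GRCm38.p6, which run from 250 bases before to 50 bases after a transcription start, were at hand for Elf5, Kit, Stat5a, Stat5b, Gata3 and Elf3 (10 windows of 300 bases). The 2 windows of Kit start at 75574737 and 75574741, so they share nearly all their bases but count as 2 of the 10. Both strands were searched for 4 motifs. The STAT motif TTCNNNGAA was in 0 of the 10 windows and in 8.3% of all 32851 windows. The GATA motif, searched as AGATAA, was in 0 of the 10 and in 11.2% of all. The ETS motif, searched as GGAAGT, was in 2, the first window of Stat5a and the second of Stat5b, and in 23.8% of all windows. The TCF/LEF factors, through which Wnt signals act, bind a motif searched as CTTTGA. It was in 2, the second windows of Elf5 and Stat5a, and in 16% of all windows. These matches describe letters only and say nothing about binding. Shown first are the windows of Kit (chr5:75574737-75575036, plus strand) and Elf3 (chr1:135258423-135258722, minus strand), the genes that rose in tumours. Next come the windows with the TCF/LEF motif in capitals, of Elf5 (chr2:103423818-103424117, plus strand; motif on the minus strand from position -51 of the start) and Stat5a (chr11:100860234-100860533, plus strand; motif on the plus strand from position -40). The window of Gata3 (chr2:9878551-9878850, minus strand) is shown because Gata3 varied most among the metastatic tumours. Each reads 5′ to 3′ on the gene's strand.
Kit: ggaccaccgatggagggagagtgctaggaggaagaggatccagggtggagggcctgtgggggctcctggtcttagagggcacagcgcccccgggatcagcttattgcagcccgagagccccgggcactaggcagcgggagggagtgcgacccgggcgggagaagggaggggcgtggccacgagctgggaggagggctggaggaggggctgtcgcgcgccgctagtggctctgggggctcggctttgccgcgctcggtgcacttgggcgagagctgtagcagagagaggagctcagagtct
Elf3: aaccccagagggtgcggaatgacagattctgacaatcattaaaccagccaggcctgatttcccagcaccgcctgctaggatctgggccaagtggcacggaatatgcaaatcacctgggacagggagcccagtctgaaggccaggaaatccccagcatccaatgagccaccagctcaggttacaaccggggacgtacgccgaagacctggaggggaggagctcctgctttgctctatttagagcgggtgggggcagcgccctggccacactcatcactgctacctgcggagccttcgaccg
Elf5: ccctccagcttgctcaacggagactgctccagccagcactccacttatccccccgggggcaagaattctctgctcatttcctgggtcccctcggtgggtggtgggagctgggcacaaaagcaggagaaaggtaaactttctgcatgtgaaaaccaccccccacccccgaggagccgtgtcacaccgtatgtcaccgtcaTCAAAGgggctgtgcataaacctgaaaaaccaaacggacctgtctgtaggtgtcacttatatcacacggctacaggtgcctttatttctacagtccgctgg
Stat5a: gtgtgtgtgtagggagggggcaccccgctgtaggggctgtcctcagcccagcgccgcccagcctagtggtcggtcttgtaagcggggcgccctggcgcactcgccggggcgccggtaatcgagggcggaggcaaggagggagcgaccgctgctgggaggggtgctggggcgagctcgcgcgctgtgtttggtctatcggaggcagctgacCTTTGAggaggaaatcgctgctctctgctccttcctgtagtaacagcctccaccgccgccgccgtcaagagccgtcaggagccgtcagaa
Gata3: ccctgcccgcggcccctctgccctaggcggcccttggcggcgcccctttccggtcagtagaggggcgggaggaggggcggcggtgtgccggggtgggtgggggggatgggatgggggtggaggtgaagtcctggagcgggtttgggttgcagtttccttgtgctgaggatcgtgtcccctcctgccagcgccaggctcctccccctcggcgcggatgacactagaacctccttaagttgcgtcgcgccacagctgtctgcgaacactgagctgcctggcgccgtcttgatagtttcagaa

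Expression is given as deposited, on the log2 scale, where a difference of 1 is a doubling of signal, and a level is set only against the same gene's level on other arrays. A change is the difference of group means in one limma fit over all 9 arrays. It was called where its p, adjusted by Benjamini-Hochberg over all genes, was under 0.05. The groups share an estimate of spread in this fit, so a wide spread in any group widens the intervals of every comparison. Array medians lay between 5.80 and 5.94. Wnt1 lay between 11.20 and 12.40 on the 6 tumour arrays and between 5.45 and 5.71 on the normal gland arrays. Normal gland 2 had a mean of 3.74 for differentiated epidermis markers and 3.11 for skeletal muscle markers (each gene's log2 value minus its mean over the 9 arrays), where normal glands 1 and 3 had -0.67 and -0.68, and -0.76 and -0.43. Its mean for 10 pan-epithelial genes was -1.60, against -0.44 and -0.19. Metastatic tumour 2 had a mean of -2.83 for 8 milk protein genes, where metastatic tumours 1 and 3 had 1.84 and -0.23.

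Kit and Elf3 were higher in both tumour groups than in normal gland, and the other 7 genes did not pass the test in any comparison. In metastatic tumours 2 of the 9 genes rose and 0 fell against normal gland, where 7.35% of all genes rose and 13.3% changed in either direction. In non-metastatic tumours 2 rose and 0 fell, where 11.2% of all genes rose and 18.8% changed. Over both tumour groups together 2 rose and 0 fell, where 13.6% of all genes rose, 9.13% fell and 22.8% changed. The same shares of all genes stand beside every count of a gene list over both tumour groups below. Kit, Elf3 and Ehf lay higher on all 6 tumour arrays than on all 3 normal gland arrays, where 15.7% of all genes did. The median change of the 9 genes over both groups was 0.90, against 0.04 for all genes, and it was 0.44 without normal gland 2. With each array left out in turn, 5.83% to 13.6% of all genes rose over both groups and 4.93% to 9.97% fell. Between metastatic and non-metastatic tumours 0 of the 9 genes passed, and 0 had an unadjusted p under 0.05, where limma called 0.00572% of all genes (1 gene) and 886 genes had an unadjusted p under 0.05.

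**Figure D1:**
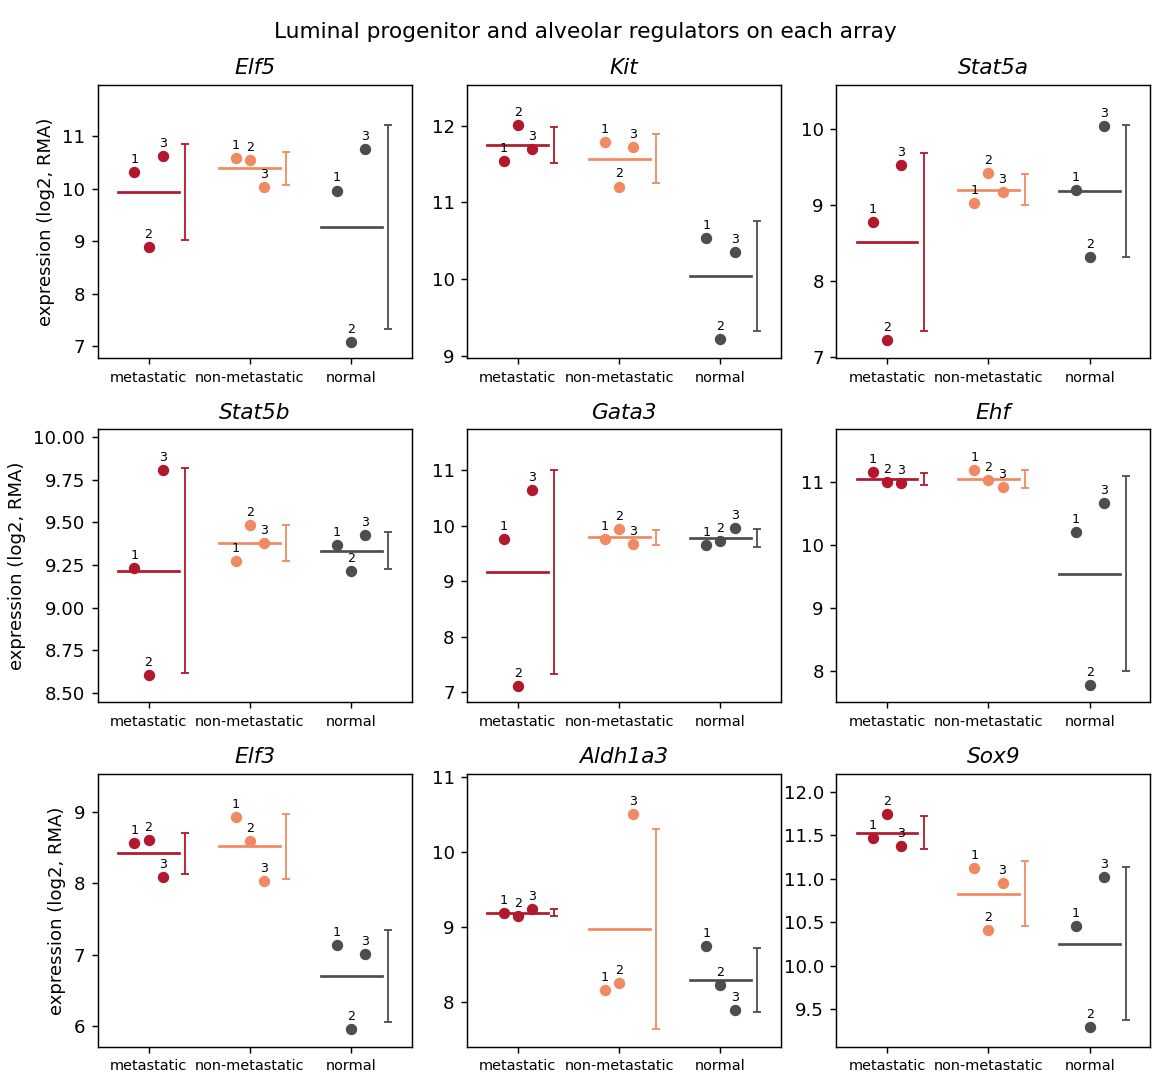
Expression (log2, RMA) of each of the 9 genes on each array, with the replicate number beside each point, the group mean as a line and the SD as a bar (n = 3 per group). For Kit, Elf3 and Ehf all 6 tumours lie above all 3 normal glands. Gata3 is lowest in metastatic tumour 2, at 7.11, and Elf5 and Ehf are lowest in normal gland 2, at 7.08 and 7.77.

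Kit (probe set 17438272) is the receptor tyrosine kinase for stem cell factor, and it marks luminal progenitors as well as mast cells and melanocytes. It had 11.55, 12.01 and 11.70 in the metastatic tumours, 11.79, 11.21 and 11.72 in the non-metastatic tumours and 10.54, 9.21 and 10.36 in the normal glands (log2). The 6 tumours lay above all 3 normal glands. Kit rose by 1.72 in metastatic tumours (SE 0.34, adjusted p = 0.020, limma), which is 3.28-fold. In non-metastatic tumours it rose by 1.54 (SE 0.34, adjusted p = 0.021), which is 2.90-fold. Over both groups the rise was 1.63 (95% interval 0.95 to 2.31, adjusted p = 0.0087), and 1.21 (adjusted p = 0.015) without normal gland 2. Metastatic and non-metastatic tumours differed by 0.18 (95% interval -0.61 to 0.96, adjusted p = 0.95), so a difference as large as that from normal gland lies outside the interval. The call in metastatic tumours was lost without any 1 of the 3 metastatic tumours (adjusted p = 0.057, 0.059 and 0.064), and that in non-metastatic tumours without non-metastatic tumour 1 (0.055) or 3 (0.051).

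Markers of mast cells and melanocytes did not rise with Kit, and the part of these cells in the Kit values was not tested. Of 9 mast cell markers tested, 0 rose, 6 fell and 3 did not pass over both tumour groups, and the 6 also fell without normal gland 2. The mean over the 10 measured mast cell markers was -0.90 to -0.73 in the metastatic tumours, -1.06 to 0.08 in the non-metastatic tumours and 0.74 to 2.01 in the normal glands. Mcpt4, a mast cell protease, fell by 4.72 (SE 0.70, adjusted p = 0.0047), and Cpa3, mast cell carboxypeptidase, fell by 4.59 (SE 0.76, adjusted p = 0.0065). Of 5 melanocyte markers tested 0 changed (1 with an unadjusted p under 0.05 in limma), with a mean between -0.19 and 0.08 in the metastatic tumours, -0.13 and 0.01 in the non-metastatic tumours and -0.04 and 0.22 in the normal glands.

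Kit's ligand and signalling partners had a median change of 0.18 over both tumour groups. Of the 13, 1 rose, 0 fell and 12 did not pass, where 13.6% of all genes rose and 9.13% fell. That gene was Sos1, which activates Ras below receptor kinases, with 9.16, 9.24 and 9.37 in the metastatic tumours, 9.03, 9.32 and 9.19 in the non-metastatic tumours and 8.73, 8.67 and 8.65 in the normal glands. It rose by 0.53 (SE 0.09, adjusted p = 0.0076). Spry1, a feedback inhibitor of receptor kinase signals, had a difference of 0.66 (SE 0.28, adjusted p = 0.13), which did not pass. Its mean was 9.24 in the metastatic tumours, 8.34 in the non-metastatic tumours and 8.13 in the normal glands. With median centring 4 of the 13 rose, where 18.8% of all genes did, and without normal gland 3, 2 rose. Between the tumour groups 0 of the 13 passed in limma, and 3 had an unadjusted p under 0.05. Kitl, the ligand of Kit, chosen after its values were seen, had means of 10.24, 9.16 and 9.52 in metastatic tumours, non-metastatic tumours and normal glands.

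Elf3 (probe set 17227266), Ehf (17388774) and Elf5 (17373739) are transcription factors of the ETS family whose expression is largely limited to epithelia. Elf3 had 8.57, 8.61 and 8.09 in the metastatic tumours, 8.92, 8.59 and 8.03 in the non-metastatic tumours and 7.14, 5.96 and 7.01 in the normal glands. The tumours lay above all normal glands. Elf3 rose by 1.72 in metastatic tumours (SE 0.35, adjusted p = 0.021), and by 1.81 in non-metastatic tumours (SE 0.35, adjusted p = 0.014). Over both groups it rose by 1.76 (95% interval 1.07 to 2.46, adjusted p = 0.0073), and by 1.39 (adjusted p = 0.020) without normal gland 2. The tumour groups differed by -0.09 (95% interval -0.89 to 0.71, adjusted p = 0.98). The call in metastatic tumours was lost without any 1 of them (adjusted p = 0.073, 0.061 and 0.0501).

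Ehf had 11.17, 11.00 and 11.00 in the metastatic tumours, 11.20, 11.04 and 10.92 in the non-metastatic tumours and 10.21, 7.77 and 10.67 in the normal glands. It was above every normal gland in every tumour and varied little among tumours. Its mean was 11.06 ± 0.10 in the metastatic tumours, 11.06 ± 0.14 in the non-metastatic tumours and 9.55 ± 1.56 in the normal glands (SD, n = 3 each). The difference from normal gland over both groups was 1.51 (SE 0.55, adjusted p = 0.085), which did not pass. Without normal gland 2, where Ehf was lowest, it was 0.62 (adjusted p = 0.041), and without normal gland 3 it was 2.07 (adjusted p = 0.034). In each of the 2 comparisons of a single tumour group with normal gland, Ehf was among the genes with no overlap: 3 of the 9 genes in non-metastatic tumours, where 21.9% of all genes were higher without overlap, and 5 of 9 in metastatic tumours, where 23.2% were.

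Elf5 drives progenitors toward the alveolar fate. It had 10.32, 8.89 and 10.62 in the metastatic tumours, 10.60, 10.56 and 10.03 in the non-metastatic tumours and 9.97, 7.08 and 10.76 in the normal glands. The groups overlapped, and normal gland 2 and metastatic tumour 2 were the lowest arrays. The difference from normal gland was 0.67 in metastatic tumours (95% interval -1.36 to 2.70, adjusted p = 0.65) and 1.13 in non-metastatic tumours (95% interval -0.90 to 3.15, adjusted p = 0.41). Over both groups it was 0.90 (adjusted p = 0.44), and without normal gland 2 it was -0.20 (adjusted p = 0.82), so its sign changed when that array was left out. Metastatic and non-metastatic tumours differed by -0.46 (95% interval -2.48 to 1.57, adjusted p = 0.96), and by 0.07 without metastatic tumour 2.

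Other ETS factors were also examined, as a family list without these 3 genes. Of 16, 6 rose, 1 fell and 9 did not pass over both tumour groups, where 13.6% of all genes rose and 9.13% fell. Etv5 and Etv4, which are switched on by growth factor signals, rose by 2.37 (SE 0.34, adjusted p = 0.0041) and 1.78 (SE 0.41, adjusted p = 0.018). Etv5 had 10.06, 11.27 and 10.94 in the metastatic tumours, 10.00, 9.64 and 10.64 in the non-metastatic tumours and 8.28, 7.50 and 8.39 in the normal glands. Etv6, a transcriptional repressor, rose by 1.23 (SE 0.32, adjusted p = 0.027), and Fli1, an ETS factor of blood and endothelial cells, fell by 1.28 (SE 0.27, adjusted p = 0.014). With each array left out in turn, 2 to 6 of the 16 rose and 0 to 2 fell. The fewest rose without normal gland 2 (2) and normal gland 1 (3), where 0 fell, and 2 fell without metastatic tumour 2 or non-metastatic tumour 3. The calls of Etv4 and Fli1 were lost without normal gland 1 or 2. Etv6 was 0.78 (adjusted p = 0.044) without normal gland 2, and its call was lost without normal gland 1, metastatic tumour 1 or metastatic tumour 2. Elf2 and Etv1, chosen after their values were seen, also rose. Each of these 2 calls was lost in 7 of the 9 fits that left out 1 array.

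Stat5a (probe set 17256440) and Stat5b (17269695) are near-identical proteins encoded side by side on chromosome 11, and a transcript of one may bind probes of the other, so their values may not be fully separate. Stat5a had 8.77, 7.23 and 9.52 in the metastatic tumours, 9.02, 9.42 and 9.17 in the non-metastatic tumours and 9.20, 8.31 and 10.04 in the normal glands. Stat5b had 9.23, 8.60 and 9.81 in the metastatic tumours, 9.28, 9.48 and 9.38 in the non-metastatic tumours and 9.36, 9.21 and 9.42 in the normal glands. The groups overlapped for both genes, and metastatic tumour 2 was the lowest array for each. Over both tumour groups Stat5a differed from normal gland by -0.33 (95% interval -1.52 to 0.86, adjusted p = 0.69), and Stat5b by -0.04 (95% interval -0.56 to 0.49, adjusted p = 0.93). Metastatic minus non-metastatic, the difference was -0.69 for Stat5a (95% interval -2.07 to 0.68) and -0.16 for Stat5b (95% interval -0.77 to 0.44), and without metastatic tumour 2 it was -0.05 and 0.14.

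Genes around the prolactin receptor and STAT5 moved in both directions. Of 14 tested, 1 rose, 2 fell and 11 did not pass over both tumour groups. Igf1, the insulin-like growth factor that growth hormone induces, fell by 2.48 (SE 0.43, adjusted p = 0.0076). Ghr, the growth hormone receptor, fell by 2.26 (SE 0.24, adjusted p = 0.0017). Ghr had 7.48, 7.56 and 7.53 in the metastatic tumours, 7.27, 7.60 and 7.41 in the non-metastatic tumours and 9.94, 10.24 and 9.02 in the normal glands. Stat3, which acts in involution after weaning, rose by 0.56 (SE 0.17, adjusted p = 0.047). The Stat3 call was lost in 7 of the 9 fits that left out 1 array and with quantile normalisation, and held without metastatic tumour 2 or non-metastatic tumour 3. Without normal gland 2 or 3, and with quantile normalisation, 4 of the 14 fell. White adipocyte markers moved with the falls: all 11 tested fell, with a mean of -1.71 to -1.39 in the metastatic tumours, -1.95 to -0.61 in the non-metastatic tumours and 2.46 to 3.40 in the normal glands, and the part of fat cells in these values was not tested.

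Of 8 milk protein genes, the best known targets of STAT5 and Elf5, 0 changed over both tumour groups against normal gland (0 with an unadjusted p under 0.05 in limma) and 0 between the tumour groups (0). All 8 had lower means in metastatic than in non-metastatic tumours, with a median difference of -1.13, against -0.02 for all genes. The mean of the list was -2.83 in metastatic tumour 2, against 1.84 and -0.23 in metastatic tumours 1 and 3. The median difference from normal gland was 0.53. It was -1.03 without normal gland 2, 1.08 without metastatic tumour 2 and -0.35 without both, and it was 1.03 and 1.17 without normal glands 1 and 3 and 0.12 without metastatic tumour 1. Lalba, the alpha-lactalbumin of milk sugar synthesis, had 12.96, 6.69 and 10.96 in the metastatic tumours, 12.52, 12.15 and 9.61 in the non-metastatic tumours and 11.65, 6.84 and 11.47 in the normal glands. Csn2, the beta-casein of milk, had 13.77, 10.65 and 13.52 in the metastatic tumours, 13.66, 13.70 and 13.11 in the non-metastatic tumours and 13.78, 9.83 and 13.90 in the normal glands. For both genes metastatic tumour 2 and normal gland 2 were the lowest arrays of their groups. Csn2 was above 13 on the 7 other arrays.

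Gata3 (probe set 17381533), a zinc finger transcription factor, had 9.76, 7.11 and 10.63 in the metastatic tumours, 9.76, 9.94 and 9.66 in the non-metastatic tumours and 9.65, 9.72 and 9.96 in the normal glands. It was even across 2 groups and wide in the metastatic one, with means of 9.17 ± 1.84, 9.79 ± 0.14 and 9.77 ± 0.16 in metastatic tumours, non-metastatic tumours and normal glands (SD, n = 3 each). The difference between metastatic tumours and normal gland was -0.61 (95% interval -2.33 to 1.12, adjusted p = 0.63), and that between non-metastatic tumours and normal gland 0.01 (95% interval -1.71 to 1.74, adjusted p = 0.99). Metastatic minus non-metastatic tumours it was -0.62 (95% interval -2.35 to 1.11, adjusted p = 0.92), and 0.41 without metastatic tumour 2. The second Gata3 probe set (17366644) had 6.25, 5.86 and 6.60 in the metastatic tumours, 6.45, 6.30 and 6.30 in the non-metastatic tumours and 6.22, 5.84 and 6.30 in the normal glands. It was also lowest among tumours in metastatic tumour 2. Its values lay close to the array medians of 5.80 to 5.94. It was as low in normal gland 2, where the first probe set had 9.72.

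In metastatic tumour 2, 4 of the 9 genes were low together. Against the mean of metastatic tumours 1 and 3, Gata3 lay at -3.09, Stat5a at -1.92, Elf5 at -1.58 and Stat5b at -0.92, while Kit lay at 0.39, Sox9 at 0.32 and Elf3 at 0.28. On this array 3 of 9 genes were at least 1 below the mean of the other 2 metastatic tumours, where 1.81% of all genes were. The pan-epithelial mean of metastatic tumour 2 was 0.00, against 0.63 and 0.46 in metastatic tumours 1 and 3. Normal gland 2 showed a partly different set, with Elf5 and Stat5a low on both arrays. Against normal glands 1 and 3, Elf5 lay at -3.29, Ehf at -2.67, Sox9 at -1.45, Stat5a at -1.31, Kit at -1.24 and Elf3 at -1.12, while Gata3 lay at -0.08. There 6 of 9 genes were at least 1 lower, where 2.6% of all genes were, and epidermis and muscle markers were high on the same array. Their part in these values was not tested, and a single array cannot give a test. Over both tumour groups against normal gland 0 of 8 epidermis and 0 of 10 muscle markers passed in limma (0 and 0 with an unadjusted p under 0.05), and 3 of 7 T and B lymphocyte markers fell (1 without normal gland 1).

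Among the other GATA factors and cofactors, 2 of 7 fell, 0 rose and 5 did not pass over both tumour groups. The share of all genes that fell was 9.13%. Gata6 had 5.75, 6.11 and 5.13 in the metastatic tumours, 6.51, 6.94 and 5.75 in the non-metastatic tumours and 8.08, 8.10 and 7.94 in the normal glands, and it fell by 2.01 (SE 0.28, adjusted p = 0.0041). Zfpm2, a cofactor of GATA proteins, fell by 0.99 (SE 0.22, adjusted p = 0.016), but without normal gland 2 only Gata6 fell. Hormone-sensing luminal genes mark the luminal cells that respond to oestrogen and progesterone. Over both tumour groups 1 of 8 fell, 0 rose and 7 did not pass. Wnt4, a Wnt ligand induced by progesterone, fell by 0.93 (SE 0.19, adjusted p = 0.014). Esr1, the oestrogen receptor, had a difference of -1.75 (SE 0.57, adjusted p = 0.057), and it fell by 2.14 (adjusted p = 0.015) without metastatic tumour 3. When normal gland 2 was left out, Wnt4 and Tnfsf11, the RANK ligand that progesterone induces, fell.

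**Figure D2:**
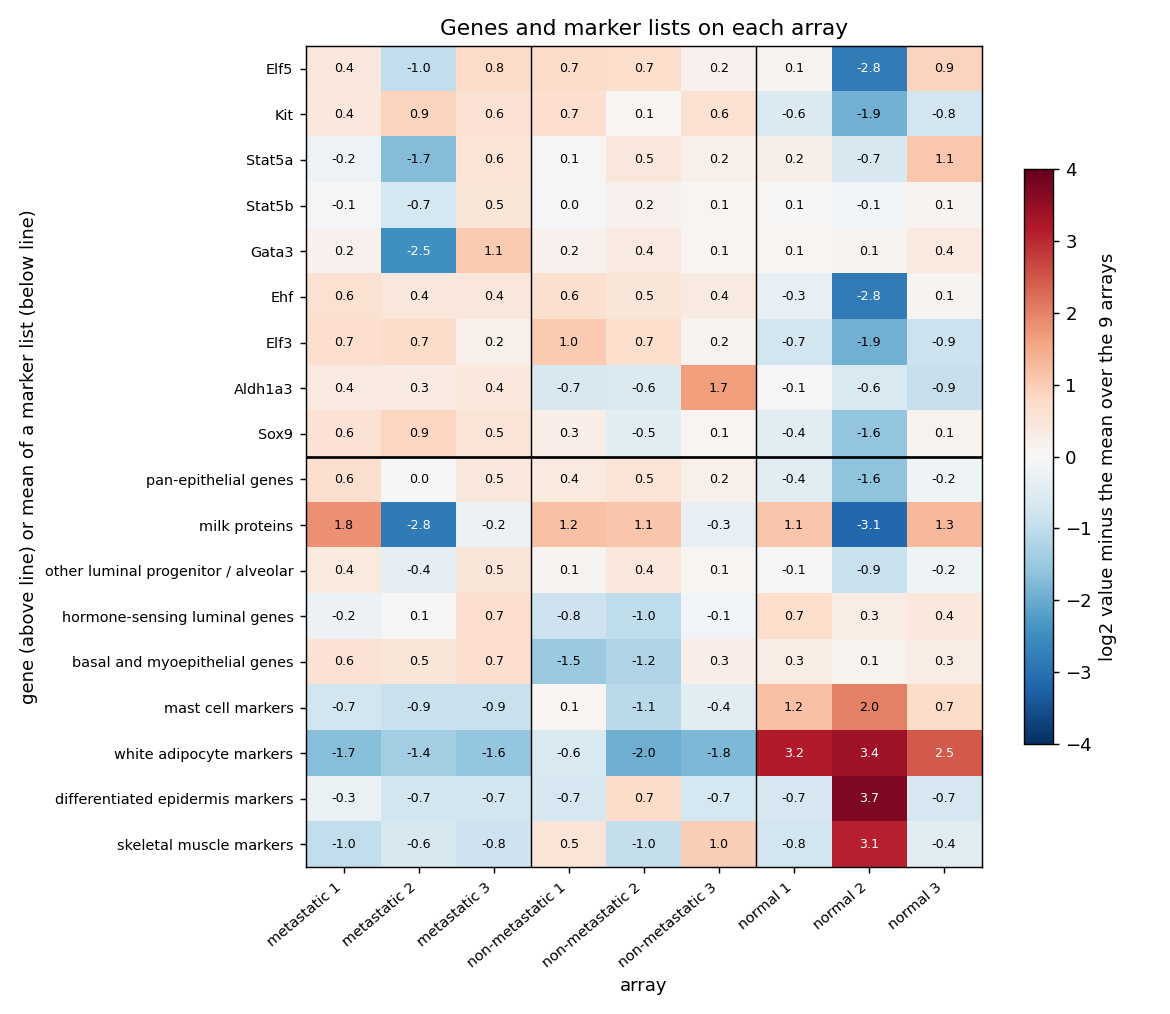
Each array's log2 value minus the mean over the 9 arrays, for the 9 genes (above the line) and as the mean of marker lists (below it), with metastatic tumours left, non-metastatic tumours in the middle and normal glands right. Metastatic tumour 2 and normal gland 2 are low for milk proteins, at -2.83 and -3.15, and fat and mast cell markers are high in the 3 normal glands.

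Aldh1a3 (probe set 17491941) makes retinoic acid from retinal, and its activity marks luminal progenitors in the human gland. It had 9.18, 9.14 and 9.24 in the metastatic tumours, 8.17, 8.25 and 10.50 in the non-metastatic tumours and 8.75, 8.22 and 7.90 in the normal glands. Metastatic tumours were close together and above all normal glands, and non-metastatic tumours were split, with tumour 3 at 2.29 above the mean of the other 2. The difference between metastatic tumours and normal gland was 0.90 (SE 0.57, adjusted p = 0.33). Metastatic minus non-metastatic tumours, it was 0.22 (95% interval -1.09 to 1.52, adjusted p = 0.97). Without non-metastatic tumour 3 these differences were 0.90 (adjusted p = 0.032) and 0.98 (adjusted p = 0.17). The first difference does not use that tumour. Its size stayed the same, and its adjusted p moved with the spread shared by all groups.

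Other genes of retinoic acid synthesis and response changed in both directions, with 3 of 15 higher, 4 lower and 8 that did not pass over both tumour groups. Stra6, the membrane receptor that takes up retinol, rose by 3.32 (SE 0.65, adjusted p = 0.011). Rdh10, which oxidises retinol to retinal one step before Aldh1a3, rose by 2.23 (SE 0.28, adjusted p = 0.0029). It had 11.29, 10.96 and 10.02 in the metastatic tumours, 10.58, 9.99 and 10.21 in the non-metastatic tumours and 8.20, 8.06 and 8.57 in the normal glands. Aldh1a7, an aldehyde dehydrogenase, fell by 3.71 (SE 0.53, adjusted p = 0.0043). Rbp4, the retinol carrier of blood made by liver and fat, fell by 2.67 (SE 0.15, adjusted p = 8.6e-05). The others past the threshold, chosen after their values were seen, were Rara, a retinoic acid receptor, which rose by 0.66, and Dhrs3 and Crabp1, which had changes of -1.01 and -0.79. The Crabp1 call was lost in 7 of the 9 fits that left out 1 array and held without normal gland 2 or metastatic tumour 1, and the Dhrs3 call was lost without normal gland 1 or 2. The count that fell was 2 without normal gland 1.

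Sox9 (probe set 17257946), an HMG-box transcription factor of luminal progenitors and of many other progenitor cells, had 11.47, 11.75 and 11.38 in the metastatic tumours, 11.13, 10.41 and 10.96 in the non-metastatic tumours and 10.46, 9.29 and 11.02 in the normal glands. The metastatic tumours lay above all other arrays. Sox9 was the 1 gene of 9 whose metastatic and non-metastatic values did not overlap, where 10.3% of all genes did not overlap. Higher in metastatic tumours without overlap were 4.41% of all genes. The difference between these groups was 0.70 (95% interval -0.23 to 1.63, adjusted p = 0.88), which did not pass. Against normal gland it was 1.28 in metastatic tumours (SE 0.40, adjusted p = 0.072) and 0.58 in non-metastatic tumours (SE 0.40, adjusted p = 0.36). Without normal gland 2 the difference over both groups was 0.44 (adjusted p = 0.26) and without normal gland 3 it was 1.31 (adjusted p = 0.028), against 0.93 (adjusted p = 0.092) with all arrays.

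Basal and myoepithelial genes differed in the same direction as Sox9 between the tumour groups. All 9 tested had higher means in metastatic than in non-metastatic tumours, with a median difference of 1.33, against -0.02 for all genes. Of these 0 passed in limma, and 5 had an unadjusted p under 0.05, where 886 of all 17478 genes did. The mean of the list was 0.58, 0.49 and 0.68 in the metastatic tumours, -1.50, -1.21 and 0.27 in the non-metastatic tumours and 0.28, 0.13 and 0.28 in the normal glands, so non-metastatic tumours 1 and 2 were the lowest arrays. Myh11, a smooth muscle myosin of myoepithelial cells, had 10.32, 10.50 and 11.13 in the metastatic tumours, 7.77, 7.29 and 9.12 in the non-metastatic tumours and 10.33, 9.70 and 10.72 in the normal glands. It differed by 2.59 (SE 0.48, adjusted p = 0.62) between metastatic and non-metastatic tumours. Values of Acta2, Mylk, Myh11 and Cnn1, 4 of the 9, were higher in metastatic tumours without overlap, where 4.41% of all genes were. In either direction 10.3% of all genes did not overlap. This direction was not particular to basal genes. Means were also higher in metastatic tumours for 10 of 13 other SOX factors and 13 of 16 other ETS factors. The same held for 5 of 8 hormone-sensing luminal genes, and 0 genes of these lists passed in limma. The part of basal cells in the Sox9 values was not tested. Over both tumour groups against normal gland 0 of the 9 basal and myoepithelial genes passed (2 with an unadjusted p under 0.05 in limma).

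Of 13 other SOX factors, 4 rose, 3 fell and 6 did not pass over both tumour groups (all genes: 13.6% rose, 9.13% fell). Sox8 and Sox10, the closest relatives of Sox9, rose by 1.93 (SE 0.26, adjusted p = 0.0038) and 1.87 (SE 0.52, adjusted p = 0.036). Sox10 had 10.09, 10.17 and 10.43 in the metastatic tumours, 10.47, 10.05 and 10.38 in the non-metastatic tumours and 9.19, 6.72 and 9.27 in the normal glands. Sox18, a factor of endothelium, fell by 1.13 (SE 0.33, adjusted p = 0.041), and Sox6 fell by 1.03 (SE 0.30, adjusted p = 0.042). Chosen after their values were seen, Sox12 and Sox13 rose by 0.57 and 0.54, and Sox17, another factor of endothelium, fell by 0.93. Several of these calls were lost when 1 array was left out. Sox10 was 1.03 (adjusted p = 0.012) without normal gland 2, and its call was lost without any 1 of the 6 tumours (changes of 1.82 to 1.93, adjusted p = 0.058 to 0.072). The call of Sox6 was lost in 8 of the 9 fits that left out 1 array, that of Sox18 in 7, that of Sox13 in 4 and that of Sox12 in 2. The change of Sox6 was -0.67 without normal gland 2. In these fits 2 to 5 of the 13 rose and 1 to 3 fell, with 2 that rose without normal gland 1, normal gland 2, metastatic tumour 1 or metastatic tumour 2.

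Of 20 other genes listed for luminal progenitor and alveolar cells, 5 rose, 0 fell and 15 did not pass over both tumour groups. Their median change was 0.73, and 13.6% of all genes rose. Whether each gene marks these cells in the mouse was not tested. Prom1, a membrane protein of epithelial cells, rose by 2.52 (SE 0.33, adjusted p = 0.0033). It had 8.25, 8.29 and 8.76 in the metastatic tumours, 8.29, 9.57 and 8.25 in the non-metastatic tumours and 6.57, 5.61 and 5.97 in the normal glands. Tfap2c, an AP-2 factor of luminal cells, rose by 1.54 (SE 0.41, adjusted p = 0.031), Runx1, a RUNX factor, by 1.22 (SE 0.24, adjusted p = 0.011), and Grhl2, a factor of epithelial junctions, by 0.86 (SE 0.23, adjusted p = 0.029). Nfib, chosen after its value was seen, rose by 0.56. Tfap2c was 0.91 (adjusted p = 0.029) without normal gland 2. Its call was lost in 6 of the 9 fits that left out 1 array, metastatic tumour 2 among them (1.54, adjusted p = 0.055), that of Grhl2 in 6 and that of Nfib in 4. The Prom1 and Runx1 calls held in these 9 fits. In them 2 to 6 of the 20 rose, with 2 without normal gland 1, metastatic tumour 1 or metastatic tumour 3, and 3 without normal gland 2 or non-metastatic tumour 2. Rspo1, chosen after its value was seen, fell by 3.45 (adjusted p = 0.013) without normal gland 2.

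Pan-epithelial genes moved with Kit and Elf3. Of 10 pan-epithelial genes, 6 rose, 0 fell and 4 did not pass over both tumour groups, with a median of 1.14 (0.64 without normal gland 2). With 1 array left out, 3 to 8 rose, with 3 without normal gland 1, metastatic tumour 1, metastatic tumour 3 or non-metastatic tumour 2. Their mean was 0.63, 0.00 and 0.46 in the metastatic tumours, 0.39, 0.55 and 0.19 in the non-metastatic tumours and -0.44, -1.60 and -0.19 in the normal glands. Cdh1, the epithelial cadherin, had 11.62, 11.53 and 11.62 in the metastatic tumours, 11.53, 11.53 and 11.73 in the non-metastatic tumours and 10.43, 10.03 and 10.86 in the normal glands. All 6 tumours lay above all normal glands for Cdh1. Relative to the mean of the 10 genes on the same array, Kit differed from normal gland by 0.60 in metastatic tumours (95% interval -0.33 to 1.54) and by 0.41 in non-metastatic tumours (95% interval -0.52 to 1.35). Elf3 differed by 0.60 (95% interval -0.33 to 1.53) and 0.69 (95% interval -0.24 to 1.62), and neither gene passed, where 0.378% and 0.132% of all genes were called higher. On this scale Stat5a (-1.79), Stat5b (-1.23) and Gata3 (-1.72) were called lower in metastatic tumours, against normal gland, and the same 3 over both tumour groups. The median of all genes was -1.07 there, and 45.1% of genes were called lower in metastatic tumours and 67.5% over both groups, so these 3 calls say nothing particular of these genes.

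**Figure D3:**
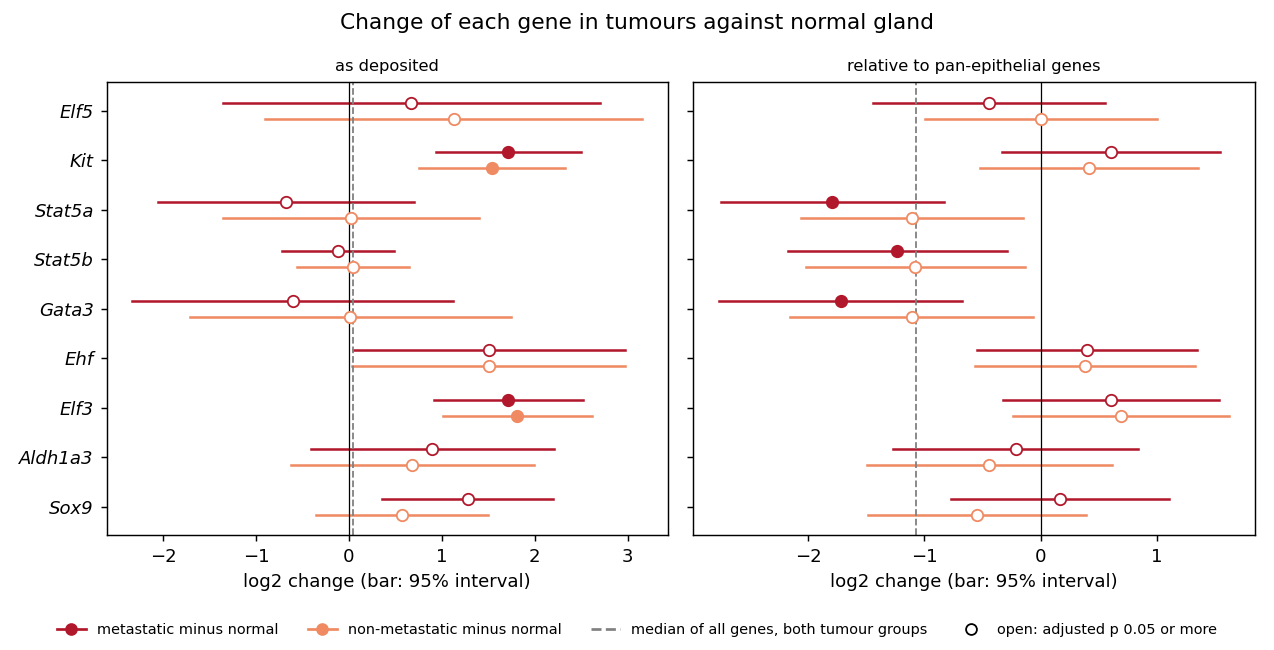
Log2 change of each gene in metastatic tumours and in non-metastatic tumours against normal gland, as deposited (left) and relative to 10 pan-epithelial genes (right), with 95% intervals. Filled points passed an adjusted p under 0.05, and the dashed line is the median of all genes over both tumour groups, at 0.04 (left) and -1.07 (right).

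The genes with the most similar profiles were found by the root mean square difference between log2 profiles over the 9 arrays, after subtracting each gene's own mean, for the 8 genes with an SD over 0.5. The search left out the 9 genes themselves and symbols of the Gm, LOC, Rik or long-number kind. Over the genes searched, the median of this difference ranged from 0.72 (Sox9) to 1.13 (Elf5). The nearest to Kit were Eya2 (0.16), Sorbs2 (0.18) and Lxn (0.25). The nearest to Elf3 were Nipal2 (0.25), Serinc2 (0.25) and Faxc (0.25), and to Ehf Phlda1 (0.22), Galnt3 (0.26) and Sox10 (0.26). The nearest to Elf5 were Mir1907 (0.29), Tmc4 (0.35) and Aldoc (0.39). For Gata3 they were Clca3a1 (0.33), Rassf6 (0.44) and Eml5 (0.44), and for Stat5a Arg2 (0.26), Sec14l2 (0.38) and Slc39a14 (0.38). For Sox9 they were Shank2 (0.24), Snord70 (0.24) and Zfp827 (0.25), and for Aldh1a3 Armcx2 (0.24), Zfp354c (0.26) and Gprasp2 (0.27). These are descriptions of 9 arrays and carry no test.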

How the data were processed

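Expression in 9 samples was measured on Affymetrix Mouse Gene 2.0 ST arrays. The deposited values are log2 expression per probe set, made by the authors with RMA per the submitters' processing notes; no version is given there. RMA equalises the arrays' distributions, which hides any overall shift between groups. Depth does not apply to arrays, and the number of arrays limits the precision.

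A probe set annotation gave 1 gene symbol to 23521 of 41345 probe sets. The probe set with the highest mean stood for a gene, and genes not exceeding the 30th percentile of the array in 3 or more of the arrays were removed. One mean per group was fitted to 9 arrays with limma 3.58.1 in R 4.3.3 (6 residual degrees of freedom, eBayes), with two-sided tests and Benjamini-Hochberg adjustment over 17478 genes. Promoter windows were credited to RefSeq GRCm38.p6.

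Groups came from the sample titles. Replicate numbers name different mice, and same-numbered samples' deviations from their group means correlated between -0.28 and 0.17 over genes, so they were not taken as pairs. The fit was tested on simulated data. The 9 genes, the 17 gene lists and the tests were chosen with earlier results of these data known. Named were every one of the 9 genes, at most 4 genes per list with the largest change (those past the threshold first), the 3 nearest genes for each profile, and Wnt1; other names are marked in the text. Alternatives were no filter, a 50th percentile filter, the mean of probe sets, quantile normalisation, median centring, centring on pan-epithelial genes, an intensity trend with robust eBayes, array weights, only the groups compared, the replicate block, another threshold, a minimum change, and each array left out. Another alternative, in tumours only, took age at collection as a covariate. Genes without a single-symbol probe set, such as Prlr, were not used here.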

Additional observations from a re-analysis of the deposited data

How the results depend on the processing

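Between metastatic and non-metastatic tumours 0 of the 9 genes was called under every alternative tried, where between 0% and 0.229% of all genes were. In non-metastatic tumours against normal gland the count of 2 was 0 with centring on pan-epithelial genes and 1 (Elf3) with only the groups compared, where 46.1% and 8.77% of all genes were called, and leaving out 1 array gave 1 to 2, where 7.7% to 21.2% were. In metastatic tumours against normal gland leaving out 1 array gave 0 to 3, where 3.59% to 16.2% of all genes were called, and leaving out normal gland 2 and metastatic tumour 2 together, chosen after seeing the data, gave 0, where 1.73% were. Over both tumour groups array weights gave a count of 4 of 9, where 43.5% of all genes were called, as did the adjusted p threshold of 0.1, where 32.3% were (Ehf and Sox9 beside Kit and Elf3), and leaving out 1 array gave 2 to 4, where 10.9% to 23.6% were. Gene list values with arrays left out were also chosen after seeing the data. Centring on pan-epithelial genes gave 3 in metastatic tumours and 3 over both groups, but these were Stat5a, Stat5b and Gata3, all lower, and not Kit or Elf3, where 45.5% and 67.8% of all genes were called. The replicate block left the counts at 0, 2, 2 and 2 in these comparisons, while the share of all genes called became 0.00572%, 12.9%, 7.43% and 17.8%. The balance of all called genes moved with the scaling: 59.6% were higher in non-metastatic tumours and 72.9% with median centring, 55.1% and 67.1% in metastatic tumours, and 59.9% and 71.6% over both. Changes of sign concerned genes that did not pass. Metastatic minus non-metastatic, Ehf was -0.028 with median centring and -0.011 with array weights, and without normal gland 2 and metastatic tumour 2 Elf5 was 0.071, Stat5b 0.14 and Gata3 0.41. In non-metastatic tumours against normal gland, Stat5a, Stat5b and Gata3 were -0.088, -0.066 and -0.083 with quantile normalisation, -0.42, -0.015 and -0.014 without both arrays, and -1.11, -1.08 and -1.11 with pan-epithelial centring, where Aldh1a3 was -0.44 and Sox9 -0.55. In metastatic tumours against normal gland, Elf5 was -0.44 and Aldh1a3 -0.21 with that centring, and Stat5b was 0.13 and Gata3 0.39 without both arrays. Over both groups Stat5b was 0.041 with median centring, 0.0090 with array weights and 0.056 without both arrays, Gata3 was 0.013 with array weights and 0.19 without both arrays, and Elf5, Aldh1a3 and Sox9 were -0.22, -0.33 and -0.19 with pan-epithelial centring. With each array left out in turn, metastatic minus non-metastatic ranged from -0.79 to 0.071 for Elf5, -0.0046 to 0.29 for Kit, -0.46 to 0.14 for Stat5b, -1.35 to 0.41 for Gata3, -0.064 to 0.075 for Ehf, -0.34 to 0.11 for Elf3 and -0.19 to 0.98 for Aldh1a3. Non-metastatic minus normal ranged from -0.42 to 0.45 for Stat5a, -0.015 to 0.097 for Stat5b, -0.061 to 0.11 for Gata3 and -0.081 to 1.09 for Aldh1a3. Metastatic minus normal ranged from -0.43 to 1.42 for Elf5, -0.42 to 0.19 for Stat5b and -1.34 to 0.42 for Gata3. Both groups minus normal ranged from -0.20 to 1.65 for Elf5, -0.77 to 0.099 for Stat5a, -0.18 to 0.12 for Stat5b and -0.66 to 0.22 for Gata3. The cause of these changes was not tested, beyond what fewer arrays or the scale itself change.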
